A study of Bos grunniens with 6 samples.

Results

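The hormone and neurotransmitter receptor set comprised 181 of the 15646 genes in the expression table. Its members were the genes annotated to the neuroactive ligand-receptor interaction pathway, taken from the table's own pathway column with no cut on their values. The rule for the set was itself chosen with earlier results of these data known. Of 199 genes with that annotation, 18 were left out because they were somatostatin or leptin, or were also annotated to the complement and coagulation cascades or to cytokine-cytokine receptor interaction. The 181 members comprised 103 G protein-coupled receptors, 40 subunits of ligand-gated and other channels, 31 ligands, 3 nuclear receptors and 4 other proteins.

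RNA was sequenced from yak (Bos grunniens) skin cells that had been isolated and grown in culture, with 3 libraries per cell type: cells of the dermal papilla, abbreviated DPC, and of the hair matrix, abbreviated HMC. The dermal papilla is the cluster of specialised fibroblasts at the base of the hair follicle, and the hair matrix is the proliferating epithelium around it that forms the hair shaft. Both cell types were wild type and were kept in the same medium, DMEM/F12 with fetal bovine serum, EGF, IGF1 and antibiotics, with no further treatment. The labels number the libraries of each cell type as biological replicates but do not say whether they came from separate yaks or cultures, so the p-values measure only the spread between these libraries. Neither ages nor passage numbers are given by the labels.

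Receptors of this set carry signals from hormones, neurotransmitters and local mediators into the cell. G protein-coupled receptors activate heterotrimeric G proteins at the plasma membrane: those of the Gs class raise cyclic AMP through adenylate cyclase, those of the Gi class lower it, and those of the Gq class release calcium through phospholipase C and the IP3 receptors. Ligand-gated channels pass ions directly when their ligand binds, and nuclear receptors act as transcription factors. In skin, endothelins, prostaglandins, lysophospholipids, extracellular nucleotides and catecholamines are known as paracrine or neural signals to keratinocytes, melanocytes and fibroblasts.

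The libraries held between 13.1 and 14 M (M, mega) recovered reads, a lower limit of their depth, and between 13541 and 13942 genes above 0. All 9 tested dermal papilla and fibroblast markers were higher in DPC, with summed levels of 17500 to 18200 FPKM against 585 to 691 FPKM in HMC, although ALPL, an alkaline phosphatase often used to define the papilla, and CORIN stayed under 0.25 FPKM in every library. Of 11 tested epithelial and matrix markers, 8 were higher in HMC, among them CDH1 and the simple-epithelial keratins KRT8 and KRT18, 1 (MSX2) was higher in DPC, and KRT14 and HOXC13 did not pass the test. Of the regulators known from the hair-forming matrix, LEF1 was higher in HMC, with means of 1.09 FPKM in DPC and 5.91 in HMC (-1.73, adjusted p 1.16e-06), while HOXC13 did not separate the cell types, with 0.435 to 0.859 FPKM in HMC and 0.559 to 1.04 FPKM in DPC.

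Most of the receptor set was low or absent in culture, although 110 to 116 of the 181 members were above 0 in each library. With a mean of at least 1 FPKM (fragments per kilobase of gene and per M mapped fragments) taken as present, 118 of the 181 members (65.2%) were present in neither cell type, against 25.9% of all genes, and 92 stayed below 0.5 FPKM in every library. Another 23 members were present in DPC only, 19 (10.5%) in HMC only and 21 (11.6%) in both, whereas the shares over all genes were 4.84% in DPC only, 6.03% in HMC only and 63.2% in both. Of the 63 members present somewhere, 42 (66.7%) were thus found in 1 cell type, against 1701 of 11596 genes (14.7%) over the whole table. This contrast was not confined to weakly expressed genes: among members whose higher mean was between 5 and 20 FPKM, 12 of 18 (66.7%) were under 1 FPKM in the other cell type, against 431 of 4248 genes (10.1%), and at 20 FPKM or more the counts were 7 of 18 (38.9%) against 243 of 5078 (4.79%). These shares are descriptions of the 2 sets of libraries and carry no test.

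**Figure D1:**
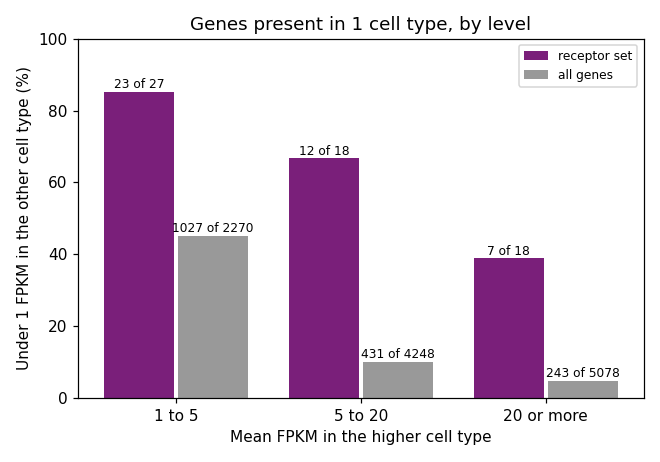
Share of genes, in percent on the vertical axis, that fell under 1 FPKM in the other cell type, by the mean FPKM in the cell type where the gene was higher. Purple bars stand for the receptor set and grey bars for all genes, with counts above the bars. The purple bar exceeds the grey one at each level, with 23 of 27 members against 1027 of 2270 genes at 1 to 5 FPKM.

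The number of members at 1 FPKM or more ranged from 44 to 47 in the DPC libraries and from 38 to 40 in the HMC libraries. By mean level, the number of members at 1 FPKM was 44 in DPC and 40 in HMC, at 5 FPKM it was 23 in each, and at 10 FPKM it was 14 in DPC and 17 in HMC, so which repertoire was wider depended on the level asked for. Summed over all 181 members the level was higher in HMC, at 656.3 to 671.3 FPKM in DPC and 1253 to 1364 FPKM in HMC. The same order held for the G protein-coupled receptors alone, at 284 to 297 FPKM in DPC and 642 to 688 FPKM in HMC. A single receptor, F2RL1, made up about 302 to 340.2 FPKM of the HMC total.

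The difference between the cell types was tested with limma on log2(FPKM + 1) over the 11883 genes that averaged 0.5 FPKM or more, with adjusted p-values taken over all of these genes. A log2 difference on this scale, written here as DPC minus HMC, is smaller than the true log ratio where values are low. Of the 181 members, 63 reached this level and 118 were not tested. At an adjusted p under 0.05, DPC had the higher level of 29 members and HMC of 32, 96.8% of those tested, against 75.9% of all genes (29.7% higher in DPC and 46.2% higher in HMC). With a difference of at least 2-fold required as well, 27 members remained on the DPC side and 24 on the HMC side, where the shares over all genes were 11.0% and 16.1%. The values of the 2 cell types did not overlap in 60 of the 63 tested members, against 77.9% of all genes tested, the exceptions being GABBR1, NMB and APLN. The median log2 difference was -0.44 over the tested members and -0.15 over all genes tested. A gene can reach the tested level through the cell type where it is high, so these counts describe the members that were expressed and not the whole set. Other scalings moved the share of all called genes that were higher in DPC from 39.1% to 49.0% (median of ratios) and 53.8% (quantile), while that share among called members stayed between 47.5% and 48.3%.

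**Figure D2:**
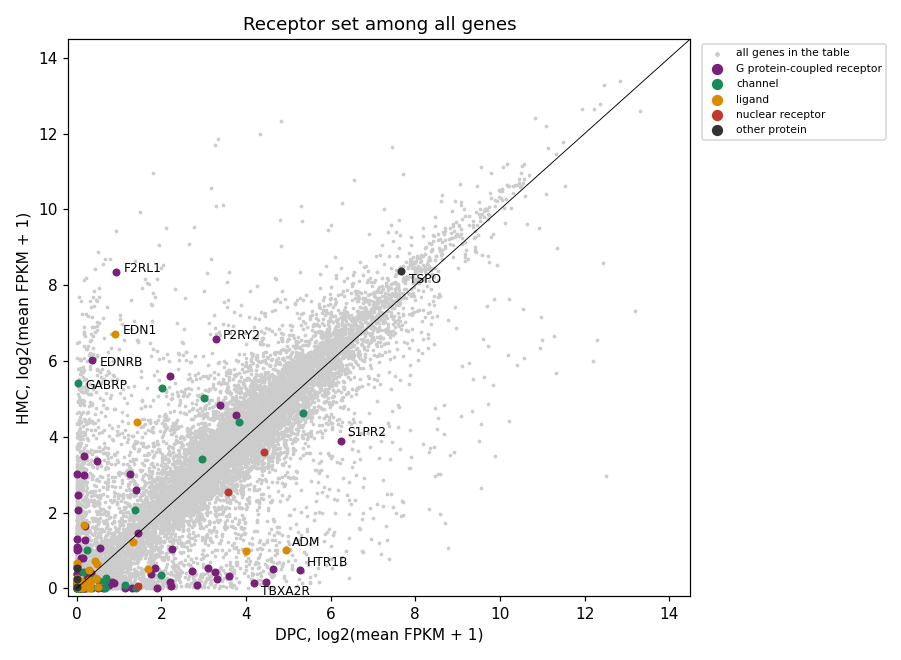
Mean level in HMC (vertical axis) against mean level in DPC (horizontal axis), both as log2(mean FPKM + 1), for all genes in grey and the 181 members in colour by kind of protein. The black line marks equal levels. Many coloured points lie along the axes, F2RL1, EDN1, EDNRB and GABRP on the HMC side and HTR1B, TBXA2R and ADM on the DPC side, while TSPO lies near the line.

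**Figure D3:**
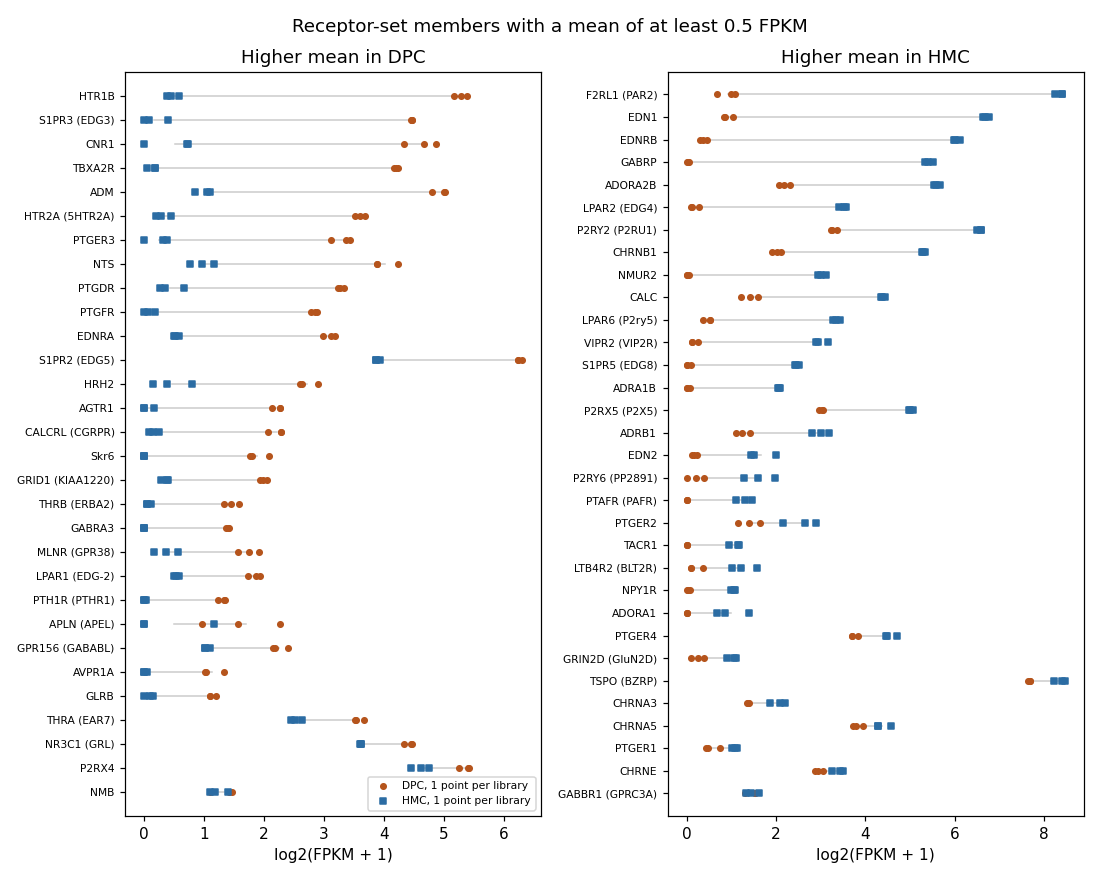
Tested members (62 of the 63), 1 row each, with log2(FPKM + 1) on the horizontal axis and 1 point per library (orange circles DPC, blue squares HMC). A grey line joins the 2 cell type means. Members with the higher mean in DPC are on the left and those with the higher mean in HMC on the right, ordered by log2 difference. The circles and squares mix only for NMB, APLN and GABBR1.

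The endothelin system, a peptide hormone family that constricts vessels and drives melanocyte precursors, was divided between the cell types in its ligand and in its receptors. EDN1, the gene of the ligand endothelin-1, was at 0.816, 0.775 and 1.06 FPKM in DPC and at 102, 108 and 98.4 FPKM in HMC. EDNRB, the receptor that binds all endothelins alike, was at 0.230, 0.282 and 0.372 FPKM in DPC and at 62.7, 68.4 and 63.0 FPKM in HMC. EDNRA, the receptor selective for endothelin-1 and endothelin-2, ran the other way, with 7.64, 8.05 and 6.87 FPKM in DPC and 0.415, 0.429 and 0.498 FPKM in HMC. All 3 genes were separated without overlap, the ligand and EDNRB high in HMC and EDNRA high in DPC. The log2 difference was -5.79 (SE 0.08) for EDN1 with an adjusted p of 1.88e-10 from limma, -5.67 (SE 0.07, adjusted p 1.6e-10) for EDNRB and 2.56 (SE 0.09, adjusted p 2.63e-08) for EDNRA. EDNRA made up 96.2% ± 1.16 (SD, n = 3) of the summed endothelin receptor FPKM in DPC, and EDNRB 99.3% ± 0.085 in HMC. EDN2 was low, with 0.126 ± 0.0434 FPKM in DPC and 2.19 ± 0.718 in HMC, and EDN3 stayed below the tested level. ECE1, the protease that cuts the endothelin precursor and a gene outside the set, averaged 50.3 FPKM in DPC and 124 in HMC. In bulk libraries such as these, fewer cells of a type that express a gene and less of its RNA per cell cannot be told apart.

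Endothelial cells and melanocytes are known to express EDNRB, and their markers were therefore read beside it. Of 8 melanocyte markers 4 matched a row, and their summed levels were 5.73 to 6.0 FPKM in DPC and 5.71 to 6.91 FPKM in HMC. SOX10, a transcription factor of melanocytes and Schwann cells, was listed at 0 in the DPC libraries and at 1.21, 1.14 and 1.92 FPKM in HMC, KIT was at 0 in HMC, and MITF was higher in DPC. PMEL, a melanosome protein, averaged 2.98 FPKM in DPC and 3.97 in HMC (-0.31, adjusted p 0.0484), so 2 of the 3 tested melanocyte markers were higher in HMC and 1 in DPC. TYR, TYRP1, DCT and MLANA were not matched to a row and are not analysed here. Of the endothelial markers 5 of 6 matched, with summed levels of 60.0 to 63.0 FPKM in DPC, nearly all of it ENG, and 3.04 to 3.2 FPKM in HMC. PECAM1 and CDH5, which define endothelium, stayed under 0.1 FPKM in every library, while VWF was at 1.04, 1.13 and 1.08 FPKM in HMC. Of the Schwann and neural markers besides SOX10, S100B and PMP22 were tested and were higher in DPC. Their means were 7.66 and 16.7 FPKM in DPC and 4.28 and 0.287 FPKM in HMC. The part of SOX10-expressing cells in the EDNRB level was not tested.

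**Figure D4:**
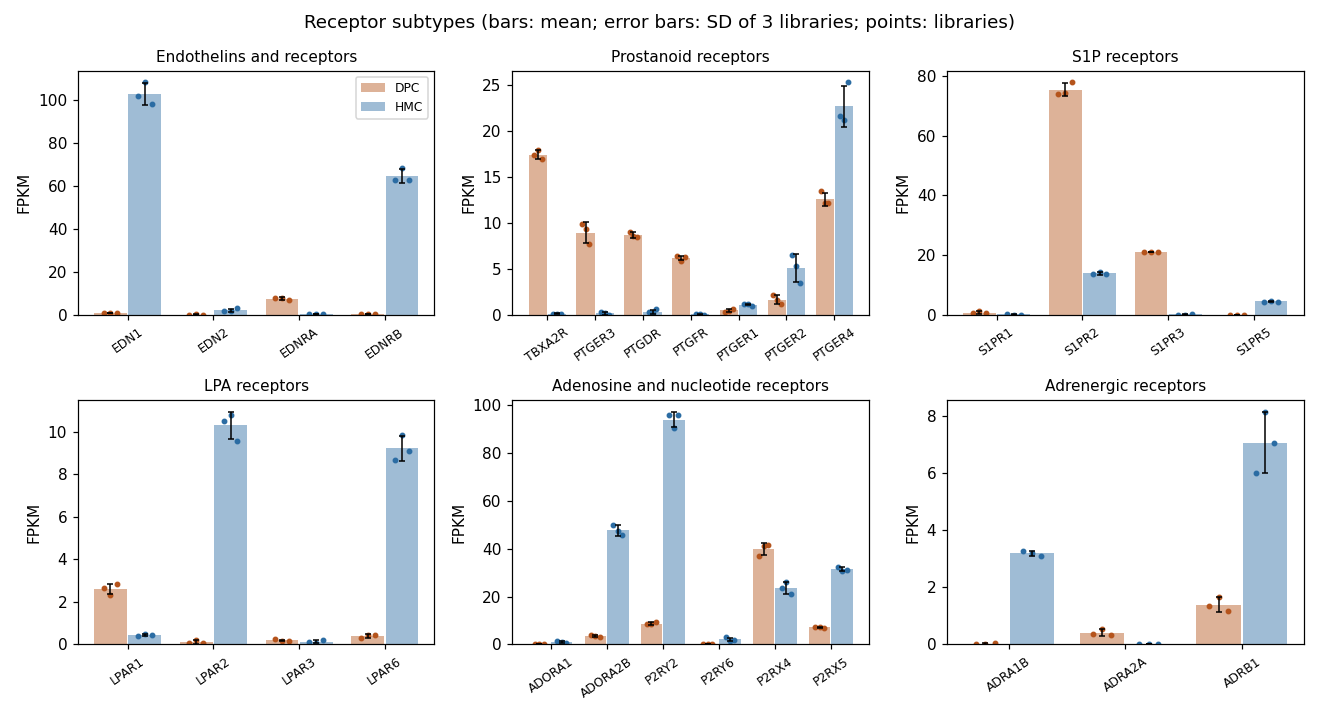
FPKM of the main members of 6 receptor families in DPC (orange) and HMC (blue), each panel with its own vertical axis from 0. Bars are means of 3 libraries, error bars their SD and points the libraries. Within the endothelin, prostanoid, S1P and lysophosphatidic acid panels some subtypes are high in DPC and others in HMC, while ADRA1B and ADRB1 are higher in HMC.

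Prostanoid receptors, which bind the prostaglandins and thromboxane made from arachidonic acid, had 6 of their 8 members present in DPC and 3 in HMC. TBXA2R, the thromboxane receptor, was at 17.4, 17.9 and 16.9 FPKM in DPC and at 0.0346, 0.137 and 0.135 FPKM in HMC. PTGFR, the prostaglandin F receptor, was at 6.35, 5.87 and 6.23 FPKM in DPC and at 0.128, 0.0422 and 0 FPKM in HMC. PTGDR, a prostaglandin D receptor, was at 9.02, 8.59 and 8.41 FPKM in DPC and at 0.267, 0.198 and 0.587 FPKM in HMC. These 3 receptors and PTGER3, the Gi-coupled prostaglandin E receptor, stood between 5.87 and 17.9 FPKM in the DPC libraries and at most at 0.587 FPKM in those of HMC. PTGER3 averaged 8.92 ± 1.11 FPKM in DPC and 0.183 ± 0.162 in HMC. Their log2 differences from limma were 4.06 for TBXA2R (SE 0.08, adjusted p 1.02e-09), 3.07 for PTGER3 (SE 0.13, adjusted p 1.21e-07), 2.85 for PTGDR (SE 0.12, adjusted p 8.79e-08) and 2.76 for PTGFR (SE 0.09, adjusted p 1.75e-08).

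The Gs-coupled prostaglandin E receptors were present in both cell types and higher in HMC. PTGER4 was at 13.4, 12.1 and 12.1 FPKM in DPC and at 21.5, 21.1 and 25.2 FPKM in HMC, a log2 difference of -0.80 (SE 0.08, adjusted p 3.19e-05). PTGER2 was at 2.10, 1.65 and 1.2 FPKM in DPC and at 6.49, 5.27 and 3.48 FPKM in HMC, a log2 difference of -1.18 (SE 0.20, adjusted p 7.48e-04). Both separated the cell types, PTGER2 with a wide spread within each. PTGER1, coupled to calcium release, was near the presence level, with 0.474 ± 0.172 FPKM in DPC and 1.11 ± 0.0898 in HMC, and PTGIR, the prostacyclin receptor, stayed below 0.1 FPKM. PTGER4 thus accounted for 76.6% ± 5.65 (SD, n = 3) of the prostanoid receptor FPKM in HMC and 22.4% ± 0.675 in DPC, where TBXA2R took 31.2% ± 1.23. The enzymes of prostaglandin metabolism, outside the set, also differed. PTGS1, the constitutive cyclooxygenase, averaged 31.5 FPKM in DPC and 8.32 in HMC. PTGS2, the inducible cyclooxygenase, averaged 8.08 and 13.6 FPKM. HPGD, which inactivates prostaglandins, averaged 27.3 FPKM in DPC and 0.432 in HMC.

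Receptors for the lysophospholipids sphingosine-1-phosphate (S1P) and lysophosphatidic acid followed opposite orders in total. S1PR2 (listed as EDG5) was at 74.1, 74.2 and 77.9 FPKM in DPC and at 13.7, 14.3 and 13.6 FPKM in HMC, the most abundant G protein-coupled receptor of the set in DPC. S1PR3 (EDG3) was at 21.2, 21.1 and 20.9 FPKM in DPC and at 0.0636, 0 and 0.311 FPKM in HMC. S1PR5 (EDG8), in contrast, was at 0, 0 and 0.0624 FPKM in DPC and at 4.40, 4.71 and 4.42 FPKM in HMC. S1PR2 was therefore shared at unequal levels, S1PR3 was found in DPC and S1PR5 in HMC. The log2 differences were 2.36 (SE 0.05, adjusted p 1.67e-09) for S1PR2, 4.30 (SE 0.11, adjusted p 4.96e-09) for S1PR3 and -2.43 (SE 0.08, adjusted p 2.75e-08) for S1PR5 in limma. The summed S1P receptor level was 97.2 ± 2.03 FPKM in DPC and 18.7 ± 0.247 in HMC. SPHK1, a kinase that makes S1P, averaged 32.1 FPKM in DPC and 68.7 in HMC.

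Lysophosphatidic acid receptors summed to 3.37 ± 0.213 FPKM in DPC and 20.1 ± 0.962 in HMC. LPAR1 (EDG-2) was at 2.65, 2.32 and 2.82 FPKM in DPC and at 0.416, 0.502 and 0.452 FPKM in HMC. LPAR2 (EDG4) was at 0.0630, 0.215 and 0.0847 FPKM in DPC and at 10.5, 10.8 and 9.57 FPKM in HMC. LPAR6 (P2ry5), a receptor whose loss causes hereditary woolly hair in humans, was at 0.289, 0.444 and 0.438 FPKM in DPC and at 8.68, 9.83 and 9.11 FPKM in HMC. LPAR1 was thus the DPC subtype, and LPAR2 and LPAR6 were the HMC subtypes. The log2 differences were 1.30 (SE 0.09, adjusted p 2.65e-06), -3.33 (SE 0.09, adjusted p 7.47e-09) and -2.88 (SE 0.09, adjusted p 1.49e-08). ENPP2, the secreted enzyme that makes lysophosphatidic acid, ran opposite to LPAR2 and LPAR6 at 12.1 FPKM in DPC and 0.390 in HMC.

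Extracellular nucleotides and adenosine signal through P2 and adenosine receptors, whose summed level was 59.9 ± 2.3 FPKM in DPC and 200 ± 5.9 in HMC. P2RY2 (P2RU1), a Gq-coupled receptor for ATP and UTP, was at 8.51, 8.43 and 9.25 FPKM in DPC and at 95.8, 90.2 and 95.7 FPKM in HMC. ADORA2B, the low-affinity Gs-coupled adenosine receptor, was at 4.003, 3.55 and 3.18 FPKM in DPC and at 50.03, 47.3 and 45.6 FPKM in HMC. P2RX5 (P2X5), a subunit of ATP-gated channels, averaged 7.11 ± 0.263 FPKM in DPC and 31.4 ± 0.939 in HMC. P2RX4, another such subunit, was the 1 tested member of the family higher in DPC, at 37.1, 41.1 and 41.7 FPKM against 23.5, 26.1 and 21.0 FPKM in HMC. All 4 were present in both cell types and separated them without overlap. The log2 differences from limma were -3.29 (SE 0.06, adjusted p 5.68e-10) for P2RY2, -3.41 (SE 0.08, adjusted p 3.22e-09) for ADORA2B, -2.00 (SE 0.06, adjusted p 1.07e-08) for P2RX5 and 0.74 (SE 0.08, adjusted p 6.54e-05) for P2RX4. P2RX4 made up 66.7% ± 1.71 (SD, n = 3) of the family in DPC, and P2RY2 47.0% ± 1.57 in HMC. P2RY6 (PP2891) and ADORA1 were weaker, at 2.13 ± 0.749 and 1.00 ± 0.541 FPKM in HMC, with ADORA1 listed at 0 in DPC and resting on 15 recovered reads in all. NT5E, the surface enzyme that turns AMP into adenosine, averaged 127 FPKM in DPC and 2.61 in HMC, the reverse of ADORA2B.

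Adrenergic receptors bind adrenaline and noradrenaline. ADRB1, a Gs-coupled receptor, was at 1.35, 1.67 and 1.16 FPKM in DPC and at 5.995, 8.15 and 7.06 FPKM in HMC, a log2 difference of -1.75 (SE 0.12, adjusted p 2.99e-06). ADRA1B, a Gq-coupled receptor, was at 0, 0 and 0.0484 FPKM in DPC and at 3.27, 3.19 and 3.11 FPKM in HMC (-2.04, SE 0.08, adjusted p 7.7e-08). Both separated the cell types without overlap and were higher in HMC, and ADRA2A, at 0.410 FPKM in DPC and 0 in HMC, was below the tested level.

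Serotonin and histamine receptors ran the other way. HTR1B, a Gi-coupled serotonin receptor, was at 37.9, 35.1 and 40.8 FPKM in DPC and at 0.371, 0.489 and 0.303 FPKM in HMC. HTR2A (5HTR2A), its Gq-coupled relative, was at 11.1, 10.4 and 11.9 FPKM in DPC and at 0.219, 0.370 and 0.153 FPKM in HMC. HRH2, the Gs-coupled histamine receptor, was at 5.10, 6.48 and 5.23 FPKM in DPC and at 0.734, 0.112 and 0.304 FPKM in HMC. Every DPC library stood above every HMC library for the 3 receptors. The log2 differences in limma were 4.81 (SE 0.09, adjusted p 7.12e-10) for HTR1B, 3.29 (SE 0.10, adjusted p 1.13e-08) for HTR2A and 2.27 (SE 0.17, adjusted p 4.01e-06) for HRH2. The other 5 serotonin receptor genes of the set stayed below 0.5 FPKM in every library. Of the set's serotonin receptors, HTR1B and HTR2A were thus present in DPC and none reached the presence level in HMC. Serotonin receptor subtypes without a row in the set are not covered. HDC, the enzyme that makes histamine, was measured in both, at 12.1 FPKM in DPC and 15.8 in HMC.

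Cannabinoid receptor rows were found in DPC. CNR1 was at 28.1, 19.1 and 24.3 FPKM in DPC and at 0.652, 0.644 and 0 FPKM in HMC, a log2 difference of 4.14 (SE 0.21, adjusted p 4.32e-07). These FPKM values rest on only 106 recovered reads in DPC and 2 in HMC. A separate row named Skr6, also annotated as a cannabinoid receptor, was at 2.39, 3.23 and 2.48 FPKM in DPC and was listed at 0 in the 3 HMC libraries, with 114 reads in DPC. Both rows separated the cell types in the same direction, and whether they are parts of the same gene was not settled from the table.

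F2RL1 (PAR2), the receptor that serine proteases switch on by cutting its extracellular end, was the most abundant G protein-coupled receptor of the set in HMC and had the largest difference of tested members on the log2(FPKM + 1) scale. Its level was 1.11, 1.00 and 0.593 FPKM in DPC and 340.2, 337 and 302 FPKM in HMC. The means were 0.901 ± 0.273 and 326 ± 21.5 FPKM (SD, n = 3), a ratio of 362, which is smaller than that of GABRP or NMUR2, both near 0 in DPC, and a log2 difference of -7.44 (SE 0.11, adjusted p 2.71e-10). ST14 (PRSS14), the membrane protease matriptase that is known to cleave this receptor and is no member of the set, averaged 0.341 FPKM in DPC and 340.3 in HMC.

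Adrenomedullin, a vasodilator peptide of the calcitonin family, was a DPC transcript together with its receptor. ADM was at 30.9, 31.5 and 26.9 FPKM in DPC and at 1.07, 0.793 and 1.14 FPKM in HMC (log2 difference 3.94, SE 0.10, adjusted p 4.28e-09). CALCRL (CGRPR), the receptor that needs a RAMP partner to reach the surface, was at 3.87, 3.18 and 3.88 FPKM in DPC and at 0.0527, 0.182 and 0.103 FPKM in HMC (2.06, SE 0.10, adjusted p 2.82e-07). RAMP2, the partner that makes CALCRL an adrenomedullin receptor, was at 28.8, 29.9 and 28.3 FPKM in DPC and at 5.69, 5.33 and 5.84 FPKM in HMC (2.18, adjusted p 8.64e-09). Ligand, receptor and partner were all higher in DPC without overlap. The calcitonin gene row CALC was the reverse, at 1.68, 2.01 and 1.31 FPKM in DPC and at 20.8, 19.7 and 19.4 FPKM in HMC (-2.98, SE 0.10, adjusted p 3.14e-08), while the calcitonin receptor CALCR stayed below 0.1 FPKM.

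Further vasoactive and hormonal peptide receptors were found in DPC at low levels. AGTR1, the angiotensin II receptor, was at 3.84, 3.40 and 3.81 FPKM in DPC and at 0, 0 and 0.122 FPKM in HMC (2.17, SE 0.09, adjusted p 1.25e-07). PTH1R (PTHR1), the receptor of parathyroid hormone and its related protein, averaged 1.47 ± 0.105 FPKM in DPC and 0.00678 ± 0.0117 in HMC (1.30, SE 0.09, adjusted p 2.11e-06). AVPR1A, a vasopressin receptor, averaged 1.19 ± 0.279 FPKM in DPC and 0.00953 ± 0.0165 in HMC (1.11, SE 0.11, adjusted p 2.95e-05). MLNR (GPR38), the motilin receptor, averaged 2.37 ± 0.419 and 0.296 ± 0.177 FPKM (1.38, SE 0.14, adjusted p 2.6e-05). These receptors were each under 0.5 FPKM in every HMC library.

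Another group of peptide and lipid receptors was found in HMC. VIPR2 (VIP2R), a receptor of vasoactive intestinal peptide, was at 0.0906, 0.0925 and 0.183 FPKM in DPC and at 6.42, 7.94 and 6.65 FPKM in HMC (-2.83, SE 0.10, adjusted p 3.5e-08). NMUR2, a neuromedin U receptor, was at 0, 0 and 0.0320 FPKM in DPC and at 7.67, 7.09 and 6.65 FPKM in HMC (-3.01, SE 0.08, adjusted p 9.04e-09). NPY1R, a neuropeptide Y receptor, TACR1, the substance P receptor, LTB4R2, a leukotriene B4 receptor, and PTAFR, the receptor of platelet-activating factor, were also higher in HMC, with means there of 1.06 to 1.45 FPKM and under 0.15 FPKM in DPC. TACR1 and PTAFR were listed at 0 in all DPC libraries. PTAFR is known from leukocytes, and immune markers were read beside it. Of the 4 matched, AIF1 was at most at 0.0770 FPKM in DPC and at 4.81 to 7.87 FPKM in HMC. CD14 was also higher in HMC, whereas LAPTM5 was higher in DPC and CD68 did not pass the test. The summed immune markers were 13 to 13.5 FPKM in DPC and 14.7 to 20.1 FPKM in HMC. PTPRC was not matched to a row, and the part of immune cells in the PTAFR and LTB4R2 levels was not tested.

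Among the remaining ligands, NTS, the precursor of neurotensin, was at 13.8, 13.7 and 17.9 FPKM in DPC and at 0.703, 0.947 and 1.25 FPKM in HMC (3.04, SE 0.14, adjusted p 1.7e-07). APLN (APEL), the apelin precursor, was at 3.81, 1.95 and 0.960 FPKM in DPC and at 1.24, 0 and 0 FPKM in HMC, and the groups overlapped. Its log2 difference was 1.21 (SE 0.39, adjusted p 0.0219) and rests on 21 reads in DPC and 4 in HMC. Over all alternatives the adjusted p ranged from 0.000338 to 0.0787, and the call was lost without DPC replicate 1 (0.88, adjusted p 0.0703), without HMC replicate 2 (1.02, adjusted p 0.0739) and without HMC replicate 3 (1.02, adjusted p 0.0787). NMB, the precursor of neuromedin B, was at 1.52 ± 0.333 FPKM in DPC and 1.35 ± 0.266 in HMC, and did not pass the test (0.10, SE 0.13, adjusted p 0.509). Of the 31 ligands of the set, 24 stayed below the tested level, among them the precursors of galanin, orexin, vasopressin and oxytocin.

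Channel subunits made up 40 members, of which 29 were not tested. GABRP, the pi subunit of the GABA-A receptor known from epithelia, was at 0.0202, 0 and 0.0408 FPKM in DPC and at 44.9, 41.6 and 39.5 FPKM in HMC (-5.40, SE 0.07, adjusted p 2.13e-10). It made up 99.0% ± 0.227 (SD, n = 3) of the summed GABA-A subunit FPKM in HMC, where the other 12 rows together came to 0.432 ± 0.105 FPKM. In DPC these other rows came to 3.63 ± 0.0807 FPKM, led by GABRA3 at 1.68, 1.57 and 1.63 FPKM, a subunit listed at 0 in all HMC libraries (1.39, SE 0.08, adjusted p 1.02e-06). The GABA-A transcripts were therefore nearly all of a single subunit in HMC and spread over several at low level in DPC. The metabotropic GABA receptor subunit GABBR1 (GPRC3A) was alike in mean, at 1.75 ± 0.236 and 1.76 ± 0.297 FPKM, and did not pass the test (-0.01, SE 0.11, adjusted p 0.96); its sign changed under other scalings. GABBR2, the partner that GABBR1 needs for signalling, was at most at 0.12 FPKM in any library.

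Nicotinic acetylcholine receptor subunits were present in both cell types and higher in HMC. CHRNB1, the beta subunit of the muscle type, was at 3.35, 3.07 and 2.78 FPKM in DPC and at 37.4, 37.95 and 39.2 FPKM in HMC (-3.27, SE 0.07, adjusted p 1.99e-09). CHRNA5 averaged 13.2 ± 1.12 FPKM in DPC and 19.9 ± 2.51 in HMC (-0.55, SE 0.10, adjusted p 9.75e-04). CHRNE averaged 6.76 ± 0.534 and 9.57 ± 0.943 FPKM (-0.44, SE 0.09, adjusted p 0.00214), and CHRNA3 averaged 1.59 ± 0.0461 and 3.18 ± 0.483 FPKM (-0.68, SE 0.10, adjusted p 3.49e-04). CHRNB1 was the 1 member of the family with a difference of 2-fold or more. CHRNA1, CHRNB2 and CHRNB4, subunits with which these partner in muscle and nerve, were each at or under 0.1 FPKM in every library. Glutamate receptor genes were mostly low or absent, and of 16 members 14 were not tested. GRID1 (KIAA1220) averaged 2.99 ± 0.162 FPKM in DPC and 0.282 ± 0.0553 in HMC, and GRIN2D (GluN2D) averaged 0.192 ± 0.121 and 1.03 ± 0.153 FPKM.

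The nuclear receptors of the set were all higher in DPC. NR3C1 (GRL), the glucocorticoid receptor, was at 21.1, 19.3 and 20.8 FPKM in DPC and at 11.1, 11.2 and 11.3 FPKM in HMC (0.81, SE 0.06, adjusted p 3.58e-06). THRA (EAR7), a thyroid hormone receptor, was at 10.4, 11.8 and 10.6 FPKM in DPC and at 4.69, 4.48 and 5.19 FPKM in HMC (1.04, SE 0.08, adjusted p 4.75e-06). THRB (ERBA2), the other thyroid hormone receptor, averaged 1.75 ± 0.233 FPKM in DPC and 0.0484 ± 0.0331 in HMC (1.39, SE 0.10, adjusted p 3.01e-06). The first of these differed by less than 2-fold and was present in both cell types, while THRB was present in DPC only. TSPO (BZRP), a mitochondrial cholesterol-binding protein that the pathway lists for its benzodiazepine binding, was abundant in both, at 205.1, 199 and 205.4 FPKM in DPC and 353, 337 and 299 FPKM in HMC (-0.69, SE 0.06, adjusted p 1.08e-05).

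Of the largest peptide group, 49 of 55 receptors and ligands were not tested. MC1R (MSHR), the melanocortin receptor that controls coat colour in melanocytes, averaged 0.105 FPKM in DPC and 0.753 in HMC and was below the tested level. The somatostatin receptors SSTR1 and SSTR2 summed to 0.0106 FPKM in DPC and 0.0861 in HMC, while somatostatin itself, left out of the set by its definition, averaged 5811 FPKM in DPC and 6.78 in HMC. At this depth no reads for SSTR1 or SSTR2 were counted in 2 of the 3 libraries of each cell type. Other somatostatin receptor subtypes are not covered by these values.

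Grouped by the G protein that textbooks give as their main partner, an assignment made after the values were seen, the receptors differed in total level between the cell types. Receptors of the Gi class summed to 74.3 ± 5.71 FPKM in DPC and 12.6 ± 1.39 in HMC, and HTR1B and CNR1 made up most of the DPC sum. The CNR1 part, 31.9% of the DPC sum, rests on only 106 recovered reads, which limits what this total can show. Receptors of the Gs class summed to 48.7 ± 0.949 FPKM in DPC and 120 ± 2.05 in HMC, led in HMC by ADORA2B with 39.8% of the sum. Receptors of the Gq class summed to 60.7 ± 0.944 FPKM in DPC and 502 ± 21.7 in HMC, of which F2RL1 was 64.9% in HMC. Without F2RL1 the Gq sum was 59.8 ± 1.02 FPKM in DPC and 176 ± 0.69 in HMC. By number of genes the classes were more even. Among 15 tested Gq receptors, DPC had the higher level of 7 and HMC of 8. For 10 tested Gs receptors these counts were 4 and 6, and for 8 tested Gi receptors 3 and 4. Over all genes tested, the called shares were 29.7% towards DPC and 46.2% towards HMC. With so few genes per class, a departure from these shares was not tested. Because 22 receptors, S1PR2 among them, were left without a class and sums weigh abundant genes most, these totals are descriptions only.

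The proteins that pass these signals on were read beside the receptors. Of 80 matched genes for G protein subunits, cyclases, phospholipase C, IP3 receptors, kinases, arrestins, RGS proteins, phosphodiesterases, protein kinase A and RAMPs, 60 were tested, 24 were higher in DPC and 25 in HMC, which is 81.7% of those tested against 75.9% of all genes. A difference of at least 2-fold was found for 15 towards DPC and 13 towards HMC, or 25.0% and 21.7%, against 11.0% and 16.1% of all genes. The split depended on the scaling, with 28 and 21 called after median-of-ratios scaling and 32 and 18 after quantile scaling, which moved the median of all tested genes from -0.15 to -0.02 and 0.05. Of the 12 tested G protein alpha subunits 3 were higher in DPC and 4 in HMC (58.3%, against 75.9% of all genes), and with quantile scaling the counts were 6 and 3. GNA15 (GNA16), a promiscuous Gq-family subunit, was at 0.0549, 0.0561 and 0.111 FPKM in DPC and at 30.8, 27.5 and 27.3 FPKM in HMC (-4.78, adjusted p 4.7e-10). GNA14, also of the Gq family, was at 17.9, 16.7 and 15.1 FPKM in DPC and at 0.553, 0.462 and 0.333 FPKM in HMC (3.60, adjusted p 6.54e-09). The family's widely expressed member GNAQ did not pass the test, with means of 15.6 and 15.9 FPKM. GNG11, a G protein gamma subunit, averaged 160.2 FPKM in DPC and 4.61 in HMC (4.89).

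IP3 receptors are the calcium channels that open downstream of Gq. ITPR3 was at 0.332, 0.218 and 0.370 FPKM in DPC and 81.5, 79.4 and 78.1 FPKM in HMC (-5.95, adjusted p 1.08e-10). ITPR2 was also higher in HMC, with means of 2.52 and 10.5 FPKM (-1.71). ITPR1 passed the test on the values as deposited (-0.22, adjusted p 0.00987) but not with median-of-ratios (-0.08, adjusted p 0.258) or quantile scaling (-0.06, adjusted p 0.369). The phospholipase C beta genes that matched a row were below the tested level. PLCB1 averaged 0.4655 FPKM in DPC and 0.0324 in HMC, and PLCB4 averaged 0 and 0.0633 FPKM. PLCB2 and PLCB3 were not matched to a row. On the cyclic AMP side, ADCY9 (KIAA0520) averaged 11.1 FPKM in DPC and 1.00 in HMC (2.61), ADCY3 (KIAA0511) averaged 10.5 and 2.75 FPKM (1.61), and ADCY6 averaged 11.8 and 28.2 FPKM (-1.19). PRKAR2B, a regulatory subunit of protein kinase A, was at 106, 105 and 106 FPKM in DPC and at 0.887, 0.8004 and 1.25 FPKM in HMC (5.76, adjusted p 3.26e-10), and the cyclic AMP phosphodiesterase PDE7B averaged 11.6 and 0.111 FPKM (3.51). The summed levels of the protein kinase A subunits, as deposited, nevertheless lay at 416 to 427 FPKM in DPC and 421 to 427 FPKM in HMC. These sums depend on the scaling. The subunit PRKACA was not called on the values as deposited (0.08, adjusted p 0.166 from limma). With median-of-ratios scaling it was higher in DPC (0.23, adjusted p 0.00229).

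Genes that end receptor signalling were measured as well. GRK5 (GPRK5), a kinase that marks active receptors for arrestin, averaged 0.707 FPKM in DPC and 18.8 in HMC (-3.54), and its relative GRK3 (ADRBK2) averaged 4.32 and 0.232 FPKM (2.11). Both beta-arrestins, ARRB1 (ARR1) and ARRB2, were higher in HMC, with means there of 2.43 and 7.97 FPKM. Of 11 tested RGS genes, which speed the shut-off of G proteins, 4 were higher in DPC and 5 in HMC, a share of 81.8% that is near the 75.9% of all genes. RGS4, RGS17 (RGSZ2) and RGS7 led in DPC with means of 7.96, 6.08 and 9.73 FPKM against at most 1.33 FPKM in any HMC library. RGS6, listed at 0 in all DPC libraries, averaged 11.8 FPKM in HMC, and RGS12 averaged 4.80 FPKM in DPC and 34.98 in HMC.

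**Figure D5:**
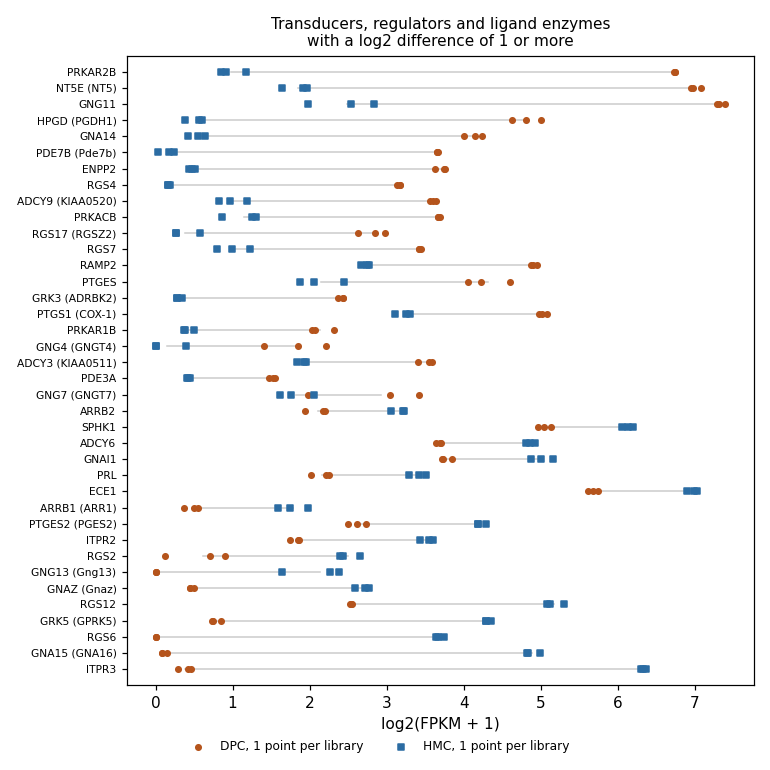
Transducers, regulators and ligand-making enzymes outside the receptor set with a log2 difference of 1 or more in either direction, with log2(FPKM + 1) on the horizontal axis and 1 point per library (orange circles DPC, blue squares HMC). Genes run from the largest difference towards DPC at the top to the largest towards HMC at the bottom. PRKAR2B, NT5E and GNG11 stand at the DPC end and ITPR3, GNA15 and RGS6 at the HMC end.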

How the data were processed

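Stranded mRNA libraries were prepared from total RNA, per the labels' protocols. DESeq 1.20.0, HISAT2 2.2.1.0 and Trimmomatic appear in the submitters' processing notes with no roles. Not given in the sources used here were the counting program, its strand setting, the genome build and the annotation. Coordinates are therefore left out, and related or overlapping genes may share reads. The authors deposited FPKM values, fragments per kilobase of gene and per M (mega) mapped fragments, for each gene and library. These do not correct for RNA composition: they summed to 548897 to 554803 in DPC and 647963 to 651773 in HMC. Each gene's values were multiples of a step that 1 read is worth for that gene (100% of 15646 genes, tolerance 1e-09), which gave recovered reads up to a common factor per gene.

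From these values, log2(FPKM + 1) was compared with limma 3.58.1 in R 4.3.3 with a trended prior variance, two-sided, over genes averaging 0.5 FPKM or more, with Benjamini-Hochberg adjustment over all 11883 and a threshold of 0.05. Presence means a mean of at least 1 FPKM. Alternatives were a pseudocount of 0.1, no filter, a filter of 5 FPKM, median-of-ratios and quantile scaling, a replicate block, limma-voom on the recovered reads, presence at 0.5 and 5 FPKM, and leaving out each library. The procedure was also run on simulated data, in which far fewer genes changed than were called here, so that run gives no error rate for these data. Replicate libraries differed by more than sampling noise (chi-square per gene of 2.57 to 5.54).

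The members, gene lists and naming rule were chosen with earlier results of these data known. The rule named members at 1 FPKM or more in a cell type, the 8 most abundant in each, the 20 with the largest differences in each direction, and up to 4 genes per list; members below these levels and a few listed genes were named after their values were seen. Older symbols, given in parentheses, were matched to current ones after the data were examined, through the table's annotation. Receptor families and G protein classes were assigned by hand. The values of 1 tested member are not reported here, although it stays in the counts and sums.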

Additional observations from a re-analysis of the deposited data

How the results depend on the processing

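Of 781 values of the 63 tested members under the alternatives, 773 kept their direction and their side of the threshold, and 61 members did so under every alternative run. APLN lost its call in the 3 fits named with it. The difference of GABBR1 changed sign without passing the threshold, at 0.09 with median-of-ratios scaling, 0.11 with quantile scaling, 0.15 with limma-voom, 0.07 without DPC replicate 1 and 0.08 without HMC replicate 1, in a range of -0.08 to 0.08 over single libraries left out. The filter set the counts, since it sets how many genes are tested: at 5 FPKM, the counts were 11 members for DPC and 15 for HMC, 9 and 11 of them by at least 2-fold, and 12 genes of the transduction lists were higher in DPC, while without a filter 48 members were higher in DPC. Shares over all genes under these filters, and the HMC counts that go with the 48 and the 12, are not given here. These counts are therefore no measure of a shift towards either cell type. With presence at 5 FPKM, 13 members were in DPC only, 13 in HMC only and 10 in both. Leaving out single libraries gave 28 to 29 members higher in DPC and 32 in HMC, and 23 to 24 present in DPC only.

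Deviations from the cell type means correlated at 0.023, 0.034 and 0.006 between same-numbered libraries, and at -0.041 to 0.014 between the others. With 3 libraries per cell type, these values cannot show whether same-numbered libraries shared an animal or a batch. With a replicate block the counts were again 29 members for DPC and 32 for HMC, and 3473 and 5451 of all genes. Reads under about 50 per cell type, as for APLN, ADORA1, EDN2 in DPC and CNR1 in HMC, limit what can be said of levels near 0.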
